A study of Mus musculus with 12 samples.

Results

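The steroid 5-alpha reductase genes Srd5a1, Srd5a2 and Srd5a3 and the estrogen receptor alpha gene Esr1 were read in mouse back skin through 7 probes. The probes were those whose gene name in the array files equals one of these 4 names, among 27373 gene names and 41174 distinct probes. All probes found this way were used, whether or not they gave a signal.

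The samples were whole back skin of male C57BL/6J mice, bought at 8 weeks of age and shaved on the back. The skin received 200 µL per day of 3% minoxidil (MXD), 10% Notocactus ottonis cell extract (N-CE) or the vehicle of propylene glycol, ethanol and water (VC), and was taken at 1W, 2W and 3W (weeks of treatment). RNA of 6 mice was pooled per treatment and week, so each of the 9 groups was 1 sample and no spread between mice could be measured. A treated pool and the VC pool of the same week were put together on 2 arrays, with MXD or N-CE in Cy5 on one and in Cy3 on the other. MXD served as the positive control of the study, and the question was which transcripts each treatment changed against VC. All groups shared the strain, the sex, the shaving and the daily application. Doses of MXD and N-CE differ in kind and amount, so their values stand side by side below.

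Steroid 5-alpha reductases reduce the double bond of testosterone and related steroids, and the product of testosterone, dihydrotestosterone, is the more potent androgen of skin and hair follicle. Srd5a1 and Srd5a2 are the classical isozymes, with Srd5a1 the one usually ascribed to skin, whereas Srd5a3 is best known for making dolichol, the lipid on which N-linked glycans are built. Esr1 is the nuclear receptor for estradiol, and estrogen given to mouse skin is known to hold hair follicles in the resting phase.

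The probes are 60 bases long and lie in different places of their transcripts. Sequences are shown for both Esr1 probes and both Srd5a1 probes, which read different stretches of their genes at different signals, and for the Srd5a2 probe, which spans an intron. Coordinates are on mm9 as the array files give them. The first 30 bases are given for the Esr1 and Srd5a1 probes, and the whole probe is given for Srd5a2. All are written 5′ to 3′ in lower case.
Esr1, 10-copy probe: ttttttgtagacgtttcaaactaccgtgtc
Esr1, 1-copy probe: tccccgaaaggttctgagaatccctgcaac
Srd5a1, bright probe: agaggaatcttgtcttaacactatactcta
Srd5a1, dim probe: ctgaaagtttacatcgtgaaccacagttag
Srd5a2: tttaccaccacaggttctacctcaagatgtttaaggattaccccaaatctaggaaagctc
The 10-copy Esr1 probe lies at chr10:5343056-5343115 on the minus strand and starts at base 3983 of its transcript record, and the 1-copy Esr1 probe lies at chr10:5345046-5345105 and starts at base 1993. The bright Srd5a1 probe lies at chr13:69712376-69712435 on the minus strand and starts at base 2556, while the dim one lies at chr13:69733518-69733577 and was designed on another transcript record. The Srd5a2 probe covers 3671 bases of the genome, chr17:74367066-74370736 on the minus strand, so its 60 bases are split by an intron. Srd5a3 has a bright probe at chr5:76583995-76584054 and a dim one at chr5:76584240-76584299, both on the plus strand. No exon or UTR annotation of mm9 was used here.

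Each probe gave 24 readings, 1 per dye channel of the 12 arrays, and the software marks each as well above background or not. The 10-copy Esr1 probe, the bright Srd5a1 probe and both Srd5a3 probes were well above background in 24 of 24 readings. Their processed signals, in array units, ran from 696 to 1774 for Esr1 and from 3841 to 9395 for the bright Srd5a1 probe. Those of Srd5a3 ran from 1046 to 1997 for the bright probe and from 40.9 to 299 for the dim one. The dim Srd5a1 probe passed in 22 of 24 readings at signals of 21.5 to 95.0.

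The Srd5a2 probe passed in only 3 of 24 readings, all of them at 3W, and its signals ran from 4.74 to 52.7. It was well above background for the VC pool of 3W in Cy5 on both comparisons and for the N-CE pool of 3W in Cy5. In the same VC pool read in Cy3 it was not well above background, so no group of any comparison was above background on both its arrays. The 1-copy Esr1 probe was well above background in 0 of 24 readings, with signals of 5.09 to 17.2. No fold is given for either of these probes.

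**Figure D1:**
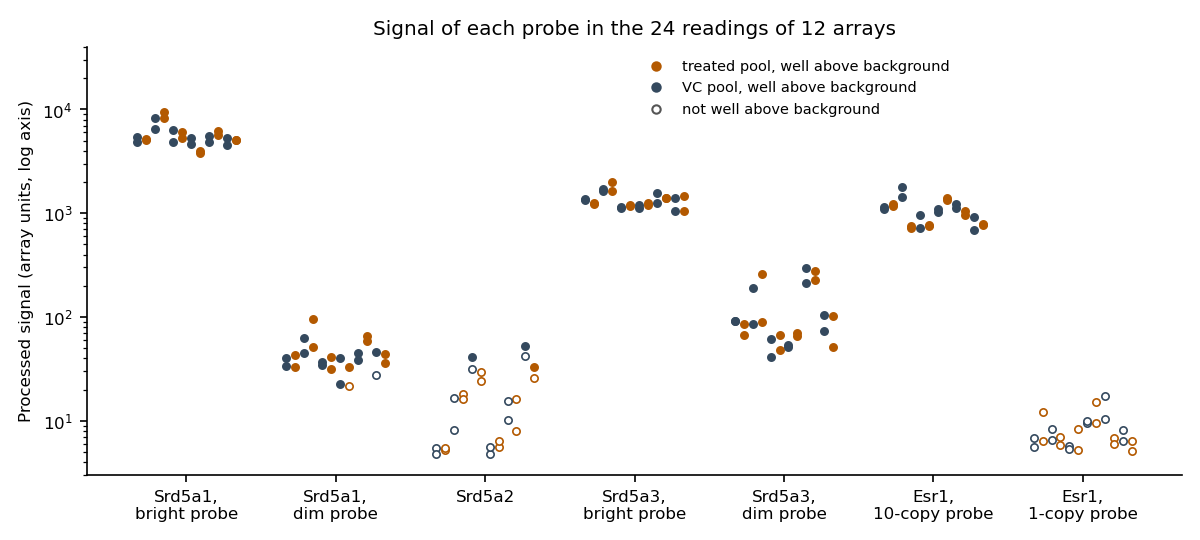
Processed signal on a log axis of the 7 probes in the 24 readings of the 12 arrays, in the order MXD 1W, 2W, 3W and N-CE 1W, 2W, 3W from left to right within a probe. Filled points were well above background and open points were not. Nearly all Srd5a2 readings and all readings of the 1-copy Esr1 probe are open, and since probes differ in affinity their heights do not rank the genes.

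Slide, scan time and VC pool were common to the 4 arrays of a week and cannot be told apart from it. Between 57.0% and 69.6% of the transcript spots were well above background per array and channel, and no spot was saturated. A probe was called when both arrays gave the same sign with an error-model P under 0.01 and the mean fold, treated over VC, was above 1.5 or below 0.75. P describes the spots and not the mice, and no test across samples was possible within a week. Over the probes above background in both pools the 2 arrays of a comparison, turned the same way, correlated at 0.57, 0.71 and 0.26 for MXD at 1W, 2W and 3W and at 0.60, -0.17 and 0.35 for N-CE. The 2 arrays of N-CE 2W thus did not run together over these probes, which holds for every N-CE 2W value below.

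Of the 7 probes, 1 was called in 1 comparison, which was Esr1 at MXD 2W, where it was lower than in VC. In that comparison 9.86% of all probes were called, the largest share among the 6, and 5.82% of all probes were called lower. In the other comparisons 0 of the 7 were called, beside 1.45% of all probes at MXD 1W, 0.304% at MXD 3W, 1.78% at N-CE 1W, 0.119% at N-CE 2W and 0.29% at N-CE 3W. With 7 probes, a count of 0 beside shares of this size says little about the members.

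**Figure D2:**
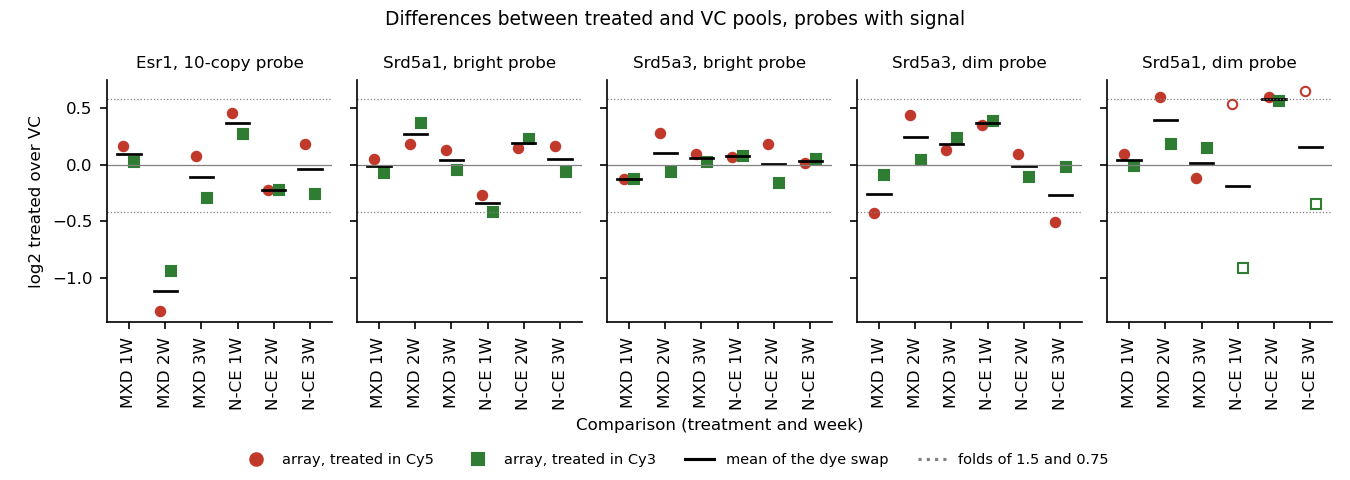
The log2 difference, treated over VC, of the 5 probes with signal in the 6 comparisons. Circles and squares are the 2 arrays of the dye swap, black lines are their mean, and open symbols mark comparisons in which a group was not well above background on both arrays. The Esr1 points of MXD 2W, at -1.29 and -0.94, lie below the dotted line for a fold of 0.75, and the means of all other probes and comparisons lie between the dotted lines.

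Esr1 was lower after 2 weeks of MXD. The 10-copy probe read 724 in the MXD pool and 1774 in the VC pool on the array with MXD in Cy5, and 751 against 1440 on the array with MXD in Cy3. Both arrays showed the MXD pool below the VC pool. The log2 differences were -1.29 and -0.94, a mean of -1.12 ± 0.25 (SD over the dye swap), which is a fold of 0.462. The error-model P was 4.95e-08 on the first array and 1.98e-05 on the second. Of the 24331 probes above background in both pools, 3.32% had a lower fold in this comparison.

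The probe is printed 10 times on each array, and the copies repeat the hybridization but not the mice. After outlier-marked spots were left out, 9 copies remained on the first MXD 2W array and 8 on the second. Their log2 differences ran from -1.35 to -1.25 on the first and from -0.99 to -0.88 on the second. All 9 and all 8 copies had P under 0.01, and the gap between the arrays exceeded the spread among the copies of either.

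**Figure D3:**
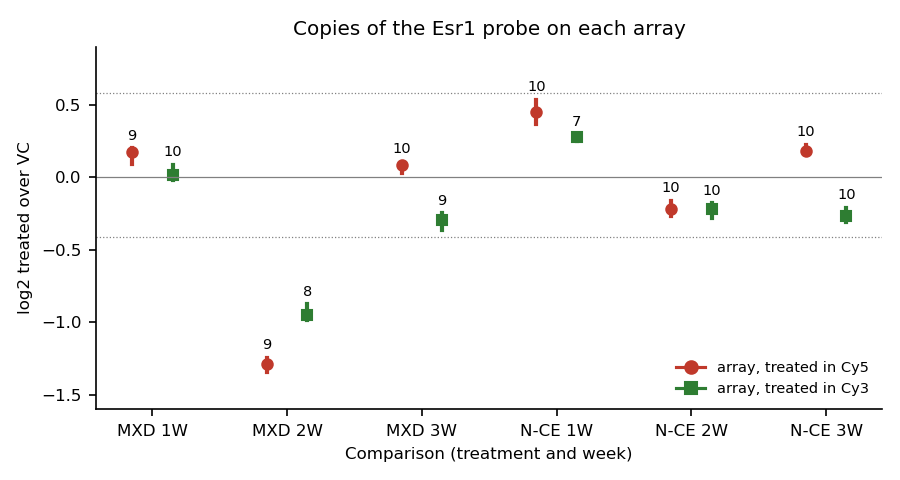
The log2 difference, treated over VC, of the copies of the Esr1 probe on each array, with the median as a symbol, the lowest and highest copy as a bar and the number of copies used above it. On the MXD 2W arrays every copy lies at -0.88 or lower, while at MXD 3W and N-CE 3W the 2 arrays of the dye swap lie on opposite sides of 0.

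At 1W the Esr1 difference under MXD was small. The MXD pool read 1228 and 1169 beside 1095 and 1149 in the VC pool, a mean log2 difference of 0.10 ± 0.10. At 3W the MXD pool read 758 and 777 beside 717 and 951, a mean of -0.11 ± 0.26, and the arrays gave opposite signs. Neither comparison reached the fold threshold, and the SD was as large as the mean or larger.

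Under N-CE the Esr1 readings of 1W were 1414 and 1330 beside 1030 and 1099 in the VC pool, and both arrays showed N-CE above VC. The mean log2 difference was 0.37 ± 0.13, a fold of 1.29, with P of 0.0301 and 0.179, so the probe was not called. At 2W the N-CE pool read 1049 and 963 beside 1219 and 1120, a mean of -0.22 with a difference of under 0.01 between the arrays. At 3W the values were 792 and 776 beside 696 and 928, a mean of -0.04 ± 0.32 with opposite signs.

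Set side by side at 2W, the Esr1 difference from the shared VC pool was -1.12 under MXD and -0.22 under N-CE, a gap of -0.90 ± 0.18 (standard error over the arrays). At 1W the 2 treatments stood at 0.10 and 0.37, and at 3W at -0.11 and -0.04. Since each treatment and week is 1 pool, the gap at 2W measures these pools and not the treatments.

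The level of Esr1 was also set across pools, as a normalized log2 intensity on a scale common to the 12 arrays. It was highest in the N-CE pool of 1W at 9.99, with arrays at 9.96 to 10.01, and lowest in the MXD pool of 2W at 8.66, with arrays at 8.49 and 8.83. Between them the order was MXD 1W at 9.68, VC 1W at 9.64, VC 2W at 9.58, VC 3W at 9.35, MXD 3W at 9.30, N-CE 3W at 9.28 and N-CE 2W at 9.26. The ranges over arrays of neighbours in this middle stretch overlapped, so neighbours there are not told apart, while all arrays of MXD 1W and VC 1W lay above all arrays of VC 3W, MXD 3W, N-CE 3W and N-CE 2W. The N-CE pool of 1W and the MXD pool of 2W overlapped with no neighbour. Arrays repeat a pool, and a week shares its slide and VC pool, so these ranges do not tell treatments or weeks apart. The share of all probes with ranges set apart in this way was not taken.

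**Figure D4:**
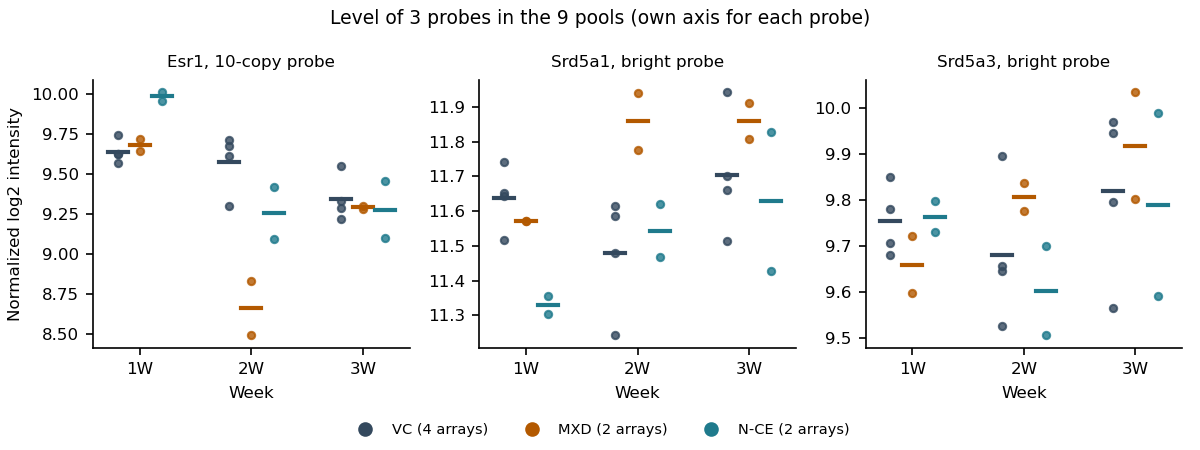
Normalized log2 intensity of the Esr1, Srd5a1 and Srd5a3 probes with the strongest signal in the VC, MXD and N-CE pools by week, with a point per array and a line at the mean. Each panel has its own axis. Both Esr1 points of MXD 2W, at 8.49 and 8.83, lie below every other Esr1 point.

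In whole skin a lower reading can come from fewer cells of a type or from less RNA per cell, and these cannot be told apart. Markers of several cell types moved in the same MXD 2W comparison. Skeletal muscle markers were called lower in 10 of 10, with a median log2 difference of -1.46 and a summed signal of 224306 to 394935 in MXD against 700691 to 931834 in VC. Dermal fibroblast markers, collagens and other matrix genes of the dermis, were called lower in 6 of 10 with a median of -0.86 and a summed signal of 162719 to 210127 against 292999 to 380762. Adipocyte markers were called lower in 5 of 8, with a median of -0.68 and sums of 162665 to 206786 against 233320 to 299898. Spinous and granular keratinocyte markers were called lower in 5 of 8 and higher in 1, with a median of -1.02 and sums of 178478 to 281941 against 450898 to 521732.

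Hair shaft markers stood the other way in this comparison, called higher in 9 of 9 with a median of 1.31 and sums of 721114 to 863355 in MXD against 307872 to 325551 in VC. Melanocyte markers were called higher in 8 of 8, with a median of 1.26 and sums of 87657 to 101701 against 35068 to 47685. Dermal papilla markers were called higher in 2 of 8 measured, with a median of 0.73, or 0.47 with normexp, and sums of 11679 to 12837 against 6590 to 8374, while Hey2 and Prom1 of this list were not well above background. Over all genes measured 11% were called lower and 6.81% higher, and the median was 0.02. The part of these shifts in the Esr1 reading was not tested.

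The mean log2 differences of the bright Srd5a1 probe lay between -0.34 and 0.28 over the comparisons. At MXD 2W the MXD pool read 9395 and 8356 beside 8283 and 6448 in the VC pool, higher on both arrays, for a mean log2 difference of 0.28 ± 0.14 and a fold of 1.21. At N-CE 1W the N-CE pool read 3841 and 4006 beside 4615 and 5332, lower on both arrays, for a mean of -0.34 ± 0.10 and a fold of 0.791. At N-CE 2W the mean was 0.19 ± 0.05, higher on both arrays. Of the probes above background in both pools, 71.8% had a lower fold at MXD 2W, 6.94% at N-CE 1W and 88.5% at N-CE 2W. These 3 were the comparisons in which both arrays had the same sign, and the lowest error-model P of any array was 0.0468, so none was called.

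In the other comparisons of the bright Srd5a1 probe the arrays had opposite signs. The means were -0.01 ± 0.09 at MXD 1W, 0.04 ± 0.12 at MXD 3W and 0.05 ± 0.16 at N-CE 3W. Beside the N-CE 1W value of Srd5a1, which is expressed in sebaceous and follicle epithelium, hair shaft markers were called lower in 9 of 9 with a median of -2.37 and sums of 14621 to 18159 against 90308 to 92304. Melanocyte markers were called lower there in 7 of 7 measured, with a median of -2.01 and sums of 5845 to 6058 against 18984 to 20743, and sebocyte markers in 1 of 10 with a median of -0.17 and sums of 155667 to 164114 against 139828 to 148290. Dermal papilla markers were called lower in 3 of 9 measured, with a median of -0.71, or -0.36 with normexp. Their sums were 4148 to 4299 against 6488 to 6990, and Hey2 was not well above background. Over all genes measured 2.97% were called lower at N-CE 1W and 0.582% higher. The part of these marker shifts in the Srd5a1 value was not tested.

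As a level, Srd5a1 was highest in the MXD pools of 2W and 3W, both at 11.86 on the normalized log2 scale, and lowest in the N-CE pool of 1W at 11.33, with arrays at 11.30 and 11.36. The VC pools stood at 11.64, 11.48 and 11.71 at 1W, 2W and 3W. Every pool overlapped with its neighbours in the order over the range of its arrays. The arrays of the N-CE pool of 1W overlapped with those of VC 2W alone and lay below all arrays of the other 7 pools. These arrays too repeat single pools, and no share over all probes was taken. The 4 arrays of the VC pool of 3W alone ran from 11.51 to 11.94.

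The dim Srd5a1 probe, on another transcript record, gave no firm difference. At N-CE 2W it read 58.6 and 66.1 beside 38.7 and 44.7 in VC, a mean log2 difference of 0.58 ± 0.02, and at MXD 2W 95.0 and 51.8 beside 62.7 and 45.4, a mean of 0.39 ± 0.29. With another background correction (normexp) these became 0.12 and 0.19. At N-CE 1W the arrays gave 0.54 and -0.91, and the treated pool was well above background on 1 of the 2. At N-CE 3W they gave 0.65 and -0.35, again on opposite sides of 0.

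The bright Srd5a3 probe had the narrowest range of means among the 5 probes with signal. Its mean log2 differences lay between -0.13 and 0.11 over the 6 comparisons, with SDs from under 0.01 to 0.24, and its error-model P was never under 0.177. At MXD 1W it read 1224 and 1260 beside 1336 and 1377 in VC, the only comparison with a negative mean, at -0.13. Its level ran from 9.60 in the N-CE pool of 2W to 9.92 in the MXD pool of 3W, and the arrays of the VC pool of 3W alone spread from 9.57 to 9.97.

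The dim Srd5a3 probe lies 3′ of the bright one on the same transcript record and spread more widely. Its means ran from -0.26 at MXD 1W and N-CE 3W to 0.37 ± 0.03 at N-CE 1W, where it read 66.0 and 70.3 beside 51.8 and 53.8 in VC. With normexp the N-CE 1W value became 0.14. The VC pool of 2W read 190, 85.8, 214 and 299 on its 4 arrays, which all held the same RNA. At N-CE 3W the dim probe stood at -0.26 ± 0.35 and the bright one at 0.03 ± 0.03.

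limma was fitted to the 3 weekly log2 differences of each treatment, with weeks standing in for replicates, and adjusted over 40820 probes. For Esr1 the mean over weeks was -0.38 ± 0.32 (SE) under MXD, with a limma adjusted p of 0.685, and 0.04 ± 0.15 under N-CE, with a limma adjusted p of 1. For the bright Srd5a1 probe it was 0.10 ± 0.08 under MXD and -0.03 ± 0.14 under N-CE, with limma adjusted p of 0.685 and 1. The bright Srd5a3 probe stood at 0.01 ± 0.07 and 0.04 ± 0.02, with limma adjusted p of 0.977 and 1. limma called 0 probes for MXD, for N-CE and for their difference. A limma unadjusted p under 0.05 was found for 3067, 1486 and 2021 probes. With no change at all, a share of 0.05 of the 40820 probes is expected to have one, so these counts are not read as changes. The fit asks only for a change shared by all weeks, and under MXD the Esr1 difference was 0.10 at 1W and -1.12 at 2W.

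Genes around the members were taken from 8 lists on steroid and dolichol biology, 168 genes on the array in all. The lists hold the members as well, so the counts below include them. At MXD 2W, 3 of 133 measured genes were called higher and 14 lower, Esr1 among the latter. These are 2.26% and 10.5%, beside 6.81% and 11% of all genes measured. At MXD 1W 2 of 139 were higher and 6 lower, beside 1.34% and 1.37% of all genes. MXD 3W had 2 higher and 0 lower of 134, beside 0.311% and 0.305% of all genes, and N-CE 1W had 1 higher and 0 lower of 134, beside 0.582% and 2.97%. With normexp the fold of each called gene of MXD 3W and N-CE 1W, and of both genes called higher at MXD 1W, was under the threshold of 1.5. At N-CE 2W and 3W 0 genes of the lists were called in either direction, beside 0.209% and 0.474% of all genes.

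In the list of the 5-alpha reductases and their relatives, 3 of the 4 genes on the array were measured, Srd5a1, Srd5a3 and Tecr (Srd5a2 was not). Srd5a1 and Srd5a3 are the members themselves, read by their bright probes, so only Tecr adds to the values above. Of the 3, 0 were called in any comparison. Tecr, a reductase of fatty acid elongation with a domain like that of the 5-alpha reductases, had the largest difference, -0.51 ± 0.01 at MXD 1W. The list of dolichol synthesis and early N-glycosylation, the setting of Srd5a3, had 0 of 28 measured genes called in each of the 6 comparisons, and its medians lay between -0.01 and 0.06. Alg8, a glucosyltransferase of the dolichol-linked glycan, had the largest difference of that list at MXD 2W, 0.55 ± 0.04. Beside these counts of 0, the share of all genes called ran from 0.209% in either direction at N-CE 2W to 6.81% higher and 11% lower at MXD 2W.

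All 8 measured genes of the list of steroid receptors and related receptors lay below 0 at MXD 2W. Their median log2 difference was -0.36 beside 0.02 for all genes. Of the 8, 2 were called lower, Esr1, the member itself, and Esrrg, and 0 higher, beside 11% and 6.81% of all genes. Esrrg, the estrogen-related receptor gamma of oxidative tissues, is not a receptor for estradiol, and stood at -1.18 ± 0.22. At MXD 1W Esrrg was called lower at -0.69 ± 0.08, 1 of 10 measured, beside 1.37% of all genes. With normexp its values were -0.48 and -0.40, and the second no longer passed the fold threshold. At N-CE 1W the median of the list was 0.13, or 0.03 with normexp, with 8 of 9 above 0. Of the 9, 0 were called, beside 0.582% of all genes higher and 2.97% lower. Nr3c1, the glucocorticoid receptor, stood at 0.26 ± 0.04 after Esr1.

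Genes of steroid synthesis had a median of -0.42 at MXD 2W. Of 17 measured, 1 was called higher and 2 lower, beside 6.81% and 11% of all genes. Star, which carries cholesterol into mitochondria, rose by a log2 of 1.09 ± 0.15, while Hsd3b6, a 3-beta-hydroxysteroid dehydrogenase, and Hsd3b7, an enzyme of bile acid synthesis, were called lower at -0.89 ± 0.26 and -0.69 ± 0.06. Hsd3b6 was also lower at MXD 1W, at -0.89 ± 0.04, the 1 gene of 18 called there, beside 1.37% of all genes called lower. In N-CE none of the 17 measured genes of this list was called in any week. Of all genes 0.582% were called higher and 2.97% lower at N-CE 1W, and 0.209% and 0.474% in either direction at 2W and 3W. The largest differences of the list at N-CE 1W were those of Hsd17b7 at -0.51 ± 0.03 and Cyp11a1, the side-chain cleavage enzyme, at 0.45 ± 0.15, or 0.22 with normexp.

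Genes that inactivate or conjugate steroids had a median of -0.42 at MXD 2W, or -0.19 with normexp, with 6 of 20 called lower and 0 higher, beside 11% and 6.81% of all genes. Cyp7b1, an oxysterol and steroid hydroxylase, stood at -1.17 ± 0.51, Sult1e1, the estrogen sulfotransferase, at -0.94 ± 0.45 and Akr1c12 at -0.88 ± 0.30. The Akr1c genes are close copies of one another, so which of them a probe reads is uncertain. Sult1e1 was called in the other direction at MXD 1W, 0.67 ± 0.09, at MXD 3W, 0.75 ± 0.08, and at N-CE 1W, 0.66 ± 0.13. Cyp7b1 was likewise higher at MXD 1W, 0.72 ± 0.02. Akr1c21 was lower at MXD 1W, at -0.78 ± 0.11, and higher at MXD 3W, at 0.98 ± 0.26. With normexp the 3 higher values of Sult1e1 were 0.48, 0.53 and 0.45, that of Cyp7b1 was 0.47 and that of Akr1c21 was 0.50, and none of them passed the fold threshold. The lower values at MXD 2W became -0.70 for Cyp7b1 and -0.61 for Sult1e1, and that of Akr1c21 at MXD 1W became -0.51, and these still passed it.

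**Figure D5:**
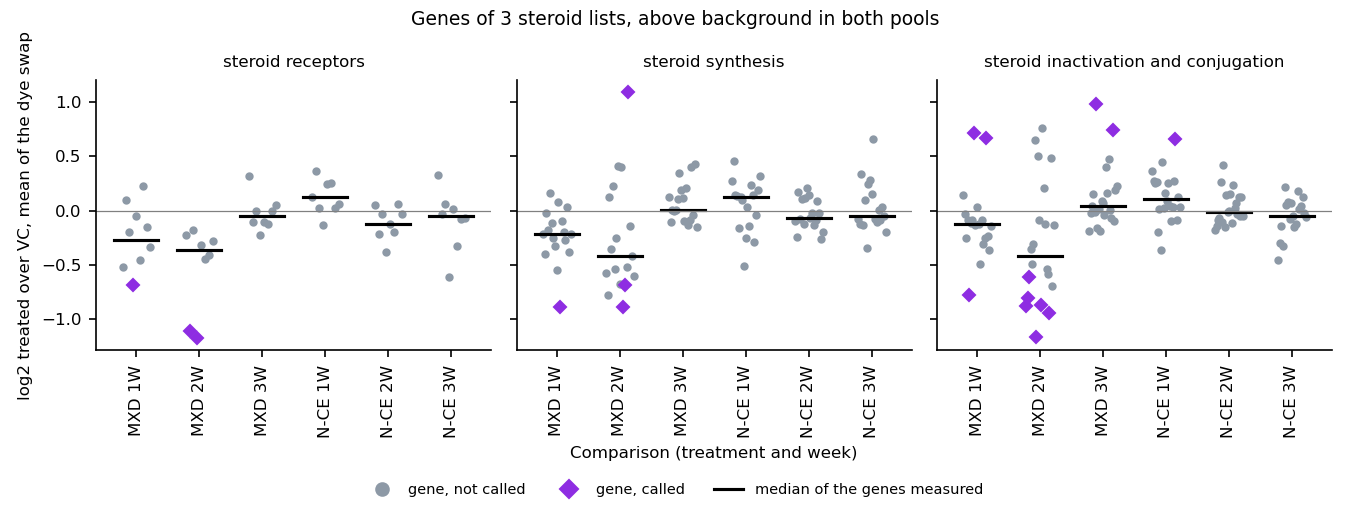
The log2 difference, treated over VC, of genes in 3 lists that were above background in both pools, with called genes as diamonds and the median of all measured genes of the list as a line. At MXD 2W the medians lie at -0.36, -0.42 and -0.42, and the 2 diamonds of the receptor panel there are Esr1 and Esrrg.

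Receptor chaperones and cofactors had 0 of 27 called in each of the 6 comparisons. The share of all genes called ran from 0.209% in either direction at N-CE 2W to 6.81% higher and 11% lower at MXD 2W. The medians of the list lay between -0.07 and 0.22. The largest difference at MXD 1W was Hsp90aa1, a chaperone that holds steroid receptors ready for ligand, at 0.41 ± 0.06. Among androgen-responsive genes 2 of 19 were called higher and 3 lower at MXD 2W, beside 6.81% and 11% of all genes, with a median of -0.12, or -0.04 with all probes of a gene averaged. Tmprss2 and Slc45a3, prostate genes known for their response to androgen, were higher at 1.25 ± 0.42 and 0.88 ± 0.23. Klf9, Tgfb2 and Tsc22d3 were lower at -0.83 ± 0.15, -0.80 ± 0.07 and -0.65 ± 0.05, and Klf9 and Tsc22d3 are known as glucocorticoid-responsive genes as well. At MXD 1W 2 of 21 were called lower and 0 higher, beside 1.37% and 1.34% of all genes. These 2 were Per1 and Herc3, at -0.76 ± 0.24 and -0.67 ± 0.10.

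Among estrogen-responsive genes 1 of 15 was called lower and 0 higher at MXD 2W, beside 11% and 6.81% of all genes. The called gene was Pdzk1, a scaffold protein gene, at -0.64 ± 0.06. It had the same mean at MXD 1W, -0.64 ± 0.02, where Esr1 was at 0.10. The median of this list was 0.11 at MXD 2W, or 0.06 with normexp and 0.07 with all probes of a gene averaged, and lay between -0.09 and 0.11 over the 6 comparisons. Ccnd1, a cyclin that estrogen induces in breast cells, had the largest difference of the list at N-CE 1W, -0.47 ± 0.05, and was not called.

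The genes whose 6 log2 differences ran most like those of each member were picked among 13132 genes above background throughout. For Esr1 these were Churc1, Mmp23 and Glt25d1, each with a Pearson correlation of 0.999 or 0.998, and their MXD 2W values were -0.60, -0.63 and -0.35. A correlation above 0.9 with Esr1 was shared by 2043 genes. For the bright Srd5a1 probe they were Trim45, Pappa and Dync2h1 at 0.998, 0.996 and 0.995, with 1039 genes above 0.9, and Pappa ran from -0.70 at N-CE 1W to 0.83 at MXD 2W. For the bright Srd5a3 probe they were Tubb4b, Kbtbd2 and Igfals at 0.999, 0.997 and 0.993, and for the dim one Farsb, Nckap1 and Lsm14a at 0.992, 0.983 and 0.980. The 6 points share 3 VC pools and 3 slides, so these correlations describe the arrays and carry no test.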

How the data were processed

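RNA of whole back skin was measured on Agilent whole mouse genome arrays with 2 colours, 12 arrays for 6 comparisons. The authors scanned the arrays and processed them with Agilent Feature Extraction, given as version 11.0.1.1 in the submitters' processing notes and 12.0.3.1 in the file headers. The deposited values are, per spot, the background-subtracted and LOWESS-normalized log10 ratio (Cy5 to Cy3), the p-value of its error model, the flags for background and outliers, and the raw and processed signal intensity of each channel. The deposited series table of log10 ratios equals the ratio of the processed signals.

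Calculations used Python 3.11.15 with numpy 2.4.6, pandas 2.3.3 and matplotlib 3.10.9, and R 4.3.3 with limma 3.58.1. Control and outlier-marked spots were left out. Ratios were turned to log2 treated over VC, spots of a probe were averaged (median of P), and the 2 arrays of a dye swap, being 1 replicate, were averaged. A probe counted as above background when over 0.5 of its copies were. Calls needed the same sign with P under 0.01 on the 2 arrays, and a fold above 1.5 or below 0.75. Levels across pools came from normexp (offset 50), loess and quantile normalization of average intensities. Genes in lists were represented by their probe with the highest mean signal and counted as measured when it was above background in a group on both arrays. Weekly log2 differences were tested with limma (lmFit and eBayes, Benjamini-Hochberg over all probes). The precision is limited by the number of arrays, and SDs are technical.

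The members and gene lists were chosen with earlier results of these data known. Named genes were all member probes, of each list the called genes (up to the 3 largest per direction) or else the 2 with the largest difference, and the 3 genes most like each member. Not every gene of that set is reported, and 1 further receptor counted in the lists is not reported here. Alternatives covered the P threshold, symmetric folds, normexp with loess, a filter on dim probes, arithmetic means, outlier-marked spots, each array alone, the series table, other probes per gene and each week left out. The steps were tested on simulated data.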

Additional observations from a re-analysis of the deposited data

How the results depend on the processing

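Esr1 at MXD 2W was called in every alternative run, and its log2 difference ranged from -1.29 to -0.94. It was 1 of 1 member probes called without the P threshold, with symmetric folds, with normexp and loess, on each array alone, with arithmetic means, with outlier-marked spots, with the dim-probe filter and with the series table. All these runs reused the same 2 arrays of the same pools. Dropping the P threshold, symmetric folds, arithmetic means, each array alone, the dim-probe filter and the series table could not have removed the call. Both arrays had P under 0.01 and differences of -1.29 and -0.94, past either lower fold threshold. The probe was well above background in 24 of 24 readings, and the series table gave it the same mean over weeks under MXD, -0.38. Without the P threshold 1 member probe each passed the fold threshold at MXD 3W (Srd5a2), N-CE 2W (the 1-copy Esr1 probe) and N-CE 3W (Srd5a2), and none of these was above background in both groups. Over all probes, dropping the P threshold gave 5645, 11868 and 2858 calls for MXD at 1W, 2W and 3W and 5567, 3257 and 3632 for N-CE, in place of 597, 4058, 125, 732, 49 and 119. The array with the treated pool in Cy5 alone gave 1486, 7767, 402, 1531, 730 and 501 in the same order, and the array with it in Cy3 alone gave 1666, 6868, 427, 1662, 1062 and 655. Normexp with loess gave 26 at N-CE 2W and 77 at N-CE 3W. For these counts the cause was not tested. The limma counts were 0 in all 7 alternatives of each fit, each week left out included. With normexp 9 of 42 member differences moved by more than the SD of the dye swap, as did 3 of 42 with the log ratios of the series table. Of 48 differences in level between a treated pool and VC, probes below background included, 20 moved by more than the SD over arrays under scaling to the 75th percentile. List medians moved by more than the SD of the dye swap in 28 cases with normexp and stayed within it in 80, and in 16 against 92 with all probes of a gene averaged. The fit of MXD minus N-CE pairs the treatments by week. Beyond that fit, no paired analysis was possible because each group of a week is 1 pool read on 2 arrays, which leaves no replicate samples to block on.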
